A study of Mus musculus with 3 samples.

Results

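The genes described here are the nuclear genes of oxidative phosphorylation, the set whose proteins are imported into mitochondria to build respiratory complexes I to IV and the ATP synthase. They were chosen by symbol (Nduf, Sdha to Sdhd, Uqcr, Cox4i, Cox5, Cox6, Cox7, Cox8 and Atp5), with at least 1 UMI, a counted mRNA molecule, in at least 10 kept cells. Of 31053 gene rows, 93 matched by symbol and 88 passed the cell minimum. The 88 comprise 44 genes of complex I, 4 of complex II, 8 of complex III, 16 of complex IV and 16 of complex V. Ndufa4 was counted with complex IV, where its protein resides despite the name, and 8 of the complex I genes (Ndufaf1 to Ndufaf8) encode assembly factors and not subunits. Cox8b, Cox8c, Ndufa4l2 and a second row named Atp5o had no UMI, and Cox7b2 had 1.

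The cells were sorted from bone marrow as LSK cells, which lack lineage markers and carry Sca1 and Kit, the fraction that contains hematopoietic stem cells and early progenitors, from 2 Helios-deficient and 2 wild-type mice. Helios is the Ikaros-family transcription factor encoded by Ikzf2. The labels do not give the allele, strain or age, nor which part of Ikzf2 is missing. Cells of each mouse carried a hashtag, all 4 mice were pooled in 1 droplet run with 3′ chemistry, and antibody tags against CD41, CD48, CD150 and Flt3 were read in the same cells. The mouse is the replicate, with 2 per genotype, and whether littermates were used is not given in the sources used here.

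Oxidative phosphorylation passes electrons from NADH (complex I) and succinate (complex II) through ubiquinone to complex III, then through cytochrome c to complex IV, which reduces oxygen. Complexes I, III and IV pump protons, and complex V lets them flow back to make ATP. All complexes except complex II also contain subunits encoded by mitochondrial DNA, so their assembly needs products of both genomes. Hematopoietic stem cells are known for quiescence and for relying on glycolysis more than their progeny, and loss of CD150 with gain of CD48 marks the passage from stem cells to progenitors.

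Promoters of these genes are known for sites of NRF1, YY1, ETS factors such as GABP, and ERR. RefSeq (GRCm38.p6) held a promoter for 74 of the 88 genes, in 79 windows from 250 bases before to 50 bases after the start. The full NRF1 palindrome was present in 8.86% of the 79 windows, against 1.33% of all protein-coding promoters. The YY1 word AAGATGGC was present in 13.9% against 3.05%, the ETS word CCGGAAG in 22.8% against 11.6%, and the ERR word AAGGTCA in 10.1% against 4.08%, on either strand. The ETS and YY1 words can share letters where they adjoin. In all, 36 of 79 windows (45.6%) held at least 1 of them against 18.7% of protein-coding promoters. Other words were closer to the general level: the E-box CACGTG stood at 8.86% against 7.84%, the GC box GGGCGG at 44.3% against 46.2% and TATAAA at 7.59% against 12.6%. The median GC content was 58.7% for these windows and 56.3% for protein-coding promoters. A match is a match of letters and not a measured binding site. The 5 promoters below each show 1 of these words, in capitals, on the strand of the gene and up to 30 bases past the start; the first 4 belong to genes that rose with loss of the stem phenotype, and Atp5g2 is the most abundant gene with the full NRF1 palindrome. They are Ndufb2 with the ERR word (chr6:39592315-39592594, plus strand), Sdhb with the ETS word (chr4:140961021-140961300, plus strand), Cox6b1 with the ETS word on the reverse strand (chr7:30626085-30626364, minus strand), Atp5f1 with the YY1 word on the reverse strand (chr3:105959234-105959513, minus strand) and Atp5g2 with the NRF1 palindrome (chr15:102671018-102671297, minus strand).
Ndufb2: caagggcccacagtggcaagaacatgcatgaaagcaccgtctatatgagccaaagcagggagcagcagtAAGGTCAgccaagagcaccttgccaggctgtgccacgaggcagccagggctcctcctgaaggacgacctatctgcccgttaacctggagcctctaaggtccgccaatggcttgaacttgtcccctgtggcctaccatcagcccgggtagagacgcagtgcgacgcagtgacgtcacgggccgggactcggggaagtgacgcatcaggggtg
Sdhb: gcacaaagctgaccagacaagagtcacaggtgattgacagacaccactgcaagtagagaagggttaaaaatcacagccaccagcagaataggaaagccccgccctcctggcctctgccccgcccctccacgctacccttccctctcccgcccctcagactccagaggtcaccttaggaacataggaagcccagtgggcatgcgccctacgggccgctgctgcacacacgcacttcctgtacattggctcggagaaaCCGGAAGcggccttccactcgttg
Cox6b1: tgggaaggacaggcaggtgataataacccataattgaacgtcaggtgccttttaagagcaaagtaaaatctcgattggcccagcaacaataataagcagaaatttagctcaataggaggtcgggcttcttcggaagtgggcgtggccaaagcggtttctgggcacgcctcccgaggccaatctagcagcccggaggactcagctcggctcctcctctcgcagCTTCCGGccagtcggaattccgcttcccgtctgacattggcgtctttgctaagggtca
Atp5f1: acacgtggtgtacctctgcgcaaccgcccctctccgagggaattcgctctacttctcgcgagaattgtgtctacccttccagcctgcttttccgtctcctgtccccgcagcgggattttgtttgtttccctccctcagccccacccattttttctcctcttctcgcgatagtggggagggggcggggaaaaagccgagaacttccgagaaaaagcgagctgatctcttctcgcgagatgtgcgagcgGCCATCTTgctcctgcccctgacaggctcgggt
Atp5g2: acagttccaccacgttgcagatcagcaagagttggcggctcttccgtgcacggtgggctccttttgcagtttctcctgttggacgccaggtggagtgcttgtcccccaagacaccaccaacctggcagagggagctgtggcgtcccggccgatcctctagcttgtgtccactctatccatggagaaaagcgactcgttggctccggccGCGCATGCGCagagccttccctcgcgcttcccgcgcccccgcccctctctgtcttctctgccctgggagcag

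The 3470 kept cells held 557 and 824 cells of Helios-deficient mice 1 and 2, at medians of 8670 and 8461 UMIs per cell. Wild-type mice 1 and 2 gave 1175 and 914 cells, at medians of 7599 and 7627 UMIs. Ikzf2 RNA itself had a CPM, its UMIs scaled to a library of fixed total, of 73.7 and 82.7 without Helios and of 70.6 and 67.7 in wild type. The RNA therefore gave no check of the genotype labels, since a 3′ tag outside a deleted part would be unaffected. LSK identity genes (Kit, Ly6a, Cd34 and Adgrl4) summed to 503 to 1040 CPM over all gates and mice, and Cd3e, which defines T cells, was at 0.

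The 88 genes together yielded 877700 UMIs, 2.67% of all UMIs of the kept cells. Because each UMI marks 1 captured 3′ end, CPM compares molecules without a correction for transcript length. The median gene stood at 239.6 CPM over all kept cells, and 75 of the 88 had a UMI in more than 50% of cells. Ndufa4 was the most abundant at 1061 CPM, followed by the complex IV subunit Cox4i1 at 965 CPM and the catalytic ATP synthase subunit Atp5b at 911 CPM. The 10 most abundant genes held 29.4% of the UMIs. At the other end, 5 genes stood under 20 CPM: the assembly factor Ndufaf5, the factor B gene Atp5s, and the tissue-restricted complex IV isoforms Cox4i2, Cox6a2 and Cox7a1, the last at 1.58 CPM. Many of these genes have processed pseudogenes, and the part that shared reads play in their levels was not tested.

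State was read from the protein tags. CD48 was split into tertiles over all kept cells, low at up to 80 tag UMIs, intermediate at up to 151 and high above, and CD150 was called high above 88 tag UMIs, its top tertile. This gave a stem gate of 383 cells (CD48 low, CD150 high), 787 CD48-low CD150-low cells, 1150 CD48-intermediate cells, 415 CD48-high CD150-high cells and 735 CD48-high CD150-low cells. Cd48 RNA rose from 8.58 ± 2.18 CPM in the stem gate to 326 ± 14.8 CPM in the CD48-high CD150-low gate (SD, n = 4 mice). Slamf1, which encodes CD150, stood at 24.5 ± 6.59 and 2.73 ± 0.57 CPM in the same gates.

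The nuclear genes took a larger share of the transcriptome in CD48-high cells, which also had more UMIs per cell. Their mean share of UMIs per cell was 2.49% ± 0.037 in the stem gate, 2.435% ± 0.035 in CD48-low CD150-low cells, 2.545% ± 0.074 in CD48-intermediate cells, 2.77% ± 0.15 in CD48-high CD150-high cells and 2.72% ± 0.11 in CD48-high CD150-low cells (SD, n = 4 mice). The stem gate ranged from 2.45% to 2.53% and the CD48-high CD150-low gate from 2.63% to 2.85%, without overlap. With every cell thinned to 5000 UMIs, leaving out 332 shallower cells, the means were 2.53% ± 0.032 and 2.715% ± 0.11. Thinning does not match cells by their own depth: in the middle tertile of UMIs per cell, CD48-high cells of the 4 mice held 2.535%, 2.555%, 2.478% and 2.533% and CD48-low cells 2.542%, 2.513%, 2.477% and 2.504%, overlapping. In the deep tertile CD48-high cells held 2.941%, 2.92%, 2.813% and 2.832% and CD48-low cells 2.819%, 2.768%, 2.78% and 2.88%. In the shallow tertile the values were 2.574%, 2.588%, 2.284% and 2.368% against 2.335%, 2.306%, 2.306% and 2.352%, with 12 and 10 CD48-high cells in the Helios-deficient mice. CD48-high cells were higher in all but wild-type mouse 2 (deep) and wild-type mouse 1 (shallow). CD48-high cells also had more UMIs per cell in every tertile and mouse. In the middle tertile their medians were 8778, 8525, 8132 and 8128, against 7722, 7612, 7766 and 7559 in CD48-low cells. In unthinned UMIs per cell the nuclear genes gave 207 ± 19.6 against 363 ± 62.2. Over all kept cells the subunits encoded by mitochondrial DNA went the other way, from 2.63% ± 0.070 in the stem gate to 2.44% ± 0.062 in the CD48-high CD150-low gate, again without overlap between mice. Thinned to 5000 UMIs the means were 2.57% ± 0.058 and 2.43% ± 0.0745, and the gates overlapped. In the middle tertile CD48-high cells held 2.516%, 2.599%, 2.533% and 2.577% and CD48-low cells 2.555%, 2.607%, 2.533% and 2.59%, overlapping. In the deep tertile CD48-high cells were higher in all but Helios-deficient mouse 1. In the shallow tertile they were higher in the Helios-deficient mice alone. The kept barcodes all lay under 5% mitochondrial UMIs, at 4.999% in the highest, which caps that share. Over all kept cells, without matching for depth, the ratio of nuclear to mitochondrial UMIs was 1.02 ± 0.020 in the stem gate. It was 1.17 ± 0.076 in the CD48-high CD150-low gate.

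**Figure D1:**
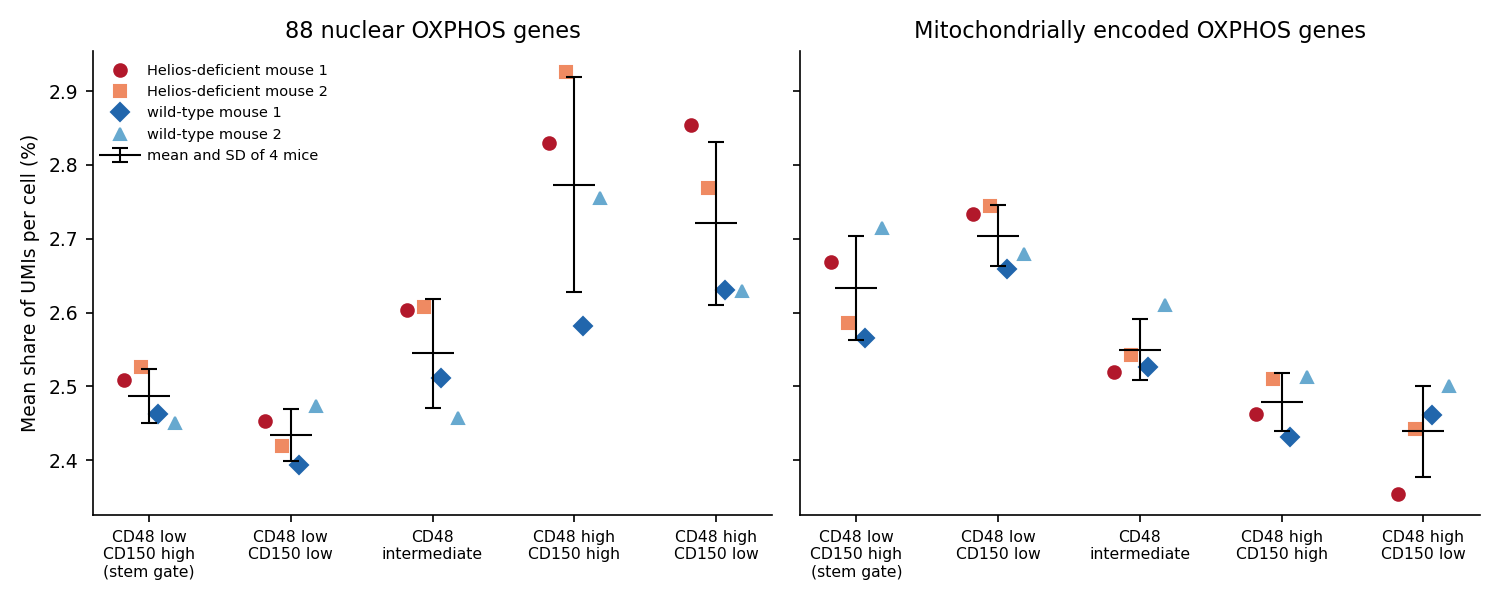
Mean share of UMIs per cell (%, vertical axis, not starting at 0) taken by the 88 nuclear genes (left) and by the mitochondrially encoded subunits (right) in the 5 tag gates; each point is 1 mouse and the bar gives mean and SD of 4 mice. The nuclear share is 2.63% to 2.85% in the CD48-high CD150-low gate, above the 2.45% to 2.53% of the stem gate. The mitochondrial share is lower there. Both are from unthinned UMIs of all kept cells, not matched for depth.

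The difference in share was largest in complex IV, with Ndufa4 counted there. Ndufa4 alone stood at 686 and 1317 CPM in the pooled cells of the stem and CD48-high CD150-low gates. Much of the complex IV difference thus came from this gene, and the share without it was not computed. All complex IV genes together took 0.654% ± 0.014 of UMIs in the stem gate and 0.762% ± 0.022 in the CD48-high CD150-low gate. Those of complex V took 0.707% ± 0.016 and 0.786% ± 0.032. Complex II genes moved from 0.0608% ± 0.0032 to 0.0688% ± 0.0044, and in complexes II, IV and V the mice of the 2 gates did not overlap. Complex I (0.785% ± 0.012 and 0.811% ± 0.043) and complex III (0.280% ± 0.0070 and 0.293% ± 0.010) overlapped. These shares are descriptions without a test.

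Gene by gene, UMIs were summed per mouse and gate and tested with edgeR's quasi-likelihood test over all genes, with the mouse as a block and Benjamini-Hochberg adjustment at 0.05. Between the CD48-high CD150-low gate and the stem gate, 87 of the 88 genes could be tested, all but Cox7a1. Of the 87, 33 rose, 4 fell and 50 were not called. The 33 include Cox6a2, which passed the count minimum only through the gates where it was present and gives no support. Over all 9516 genes tested, 13.4% rose and 13.1% fell, 26.5% in all, against 42.5% called among the 87. The median log2 fold change of the 87 was 0.13 and that of all genes -0.01, and 70 of the 87 had a positive value. In 23 of the 87 genes (26.4%, against 9.98% of all genes) every CD48-high CD150-low value lay above every stem gate value, and in 6 (6.9%, against 13.4%) every value lay below. With library totals in place of TMM scaling the counts were 23 higher and 6 lower. Without Helios-deficient mouse 2, 21 genes rose. The count depended most on which cells entered: 13 rose after thinning to equal depth, 7 in cells low in cell cycle genes, 6 without cells carrying mature cell markers and 5 in cells of 6000 to 10000 UMIs. In the same fits 9.58%, 6.21%, 4.9% and 6.26% of all genes rose, and the median of the nuclear genes was 0.11, 0.02, 0.06 and 0.01. The mature marker filter removed 2153 of the 3470 cells. A shorter filter that did not count Igkc, Cd79b and Nkg7 removed 130. With it 26 of the nuclear genes rose, against 12.9% of all genes, and their median was 0.11. Of the 33, 5, Cox6a2 among them, were called in both the depth and the low-cycle subset, 2 in the low-cycle subset alone and 26 in neither. Of the 4 that fell, 1 was called in the low-cycle subset and 3 in neither. Rises over all genes also went from 13.4% to 6.26% and 6.21% in these smaller subsets. How many of the calls over all genes were kept was not counted.

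**Figure D2:**
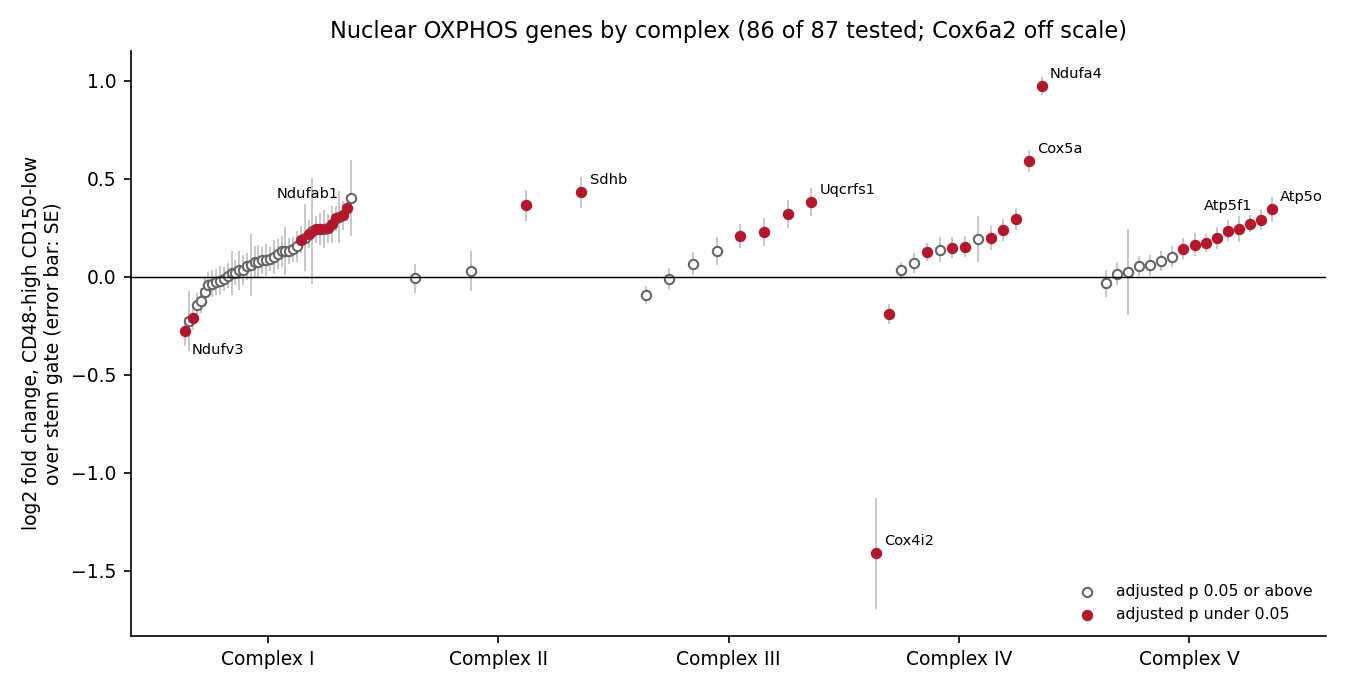
Log2 fold change of the CD48-high CD150-low gate over the stem gate (vertical axis, error bar SE) for 86 of the 87 tested genes, grouped by complex and ordered by size; Cox6a2, with 0 UMIs in the stem gate, is off the scale. Filled points passed an adjusted p of 0.05; Ndufa4 at 0.97 and Cox5a at 0.59 lie above all others shown, and Cox4i2 at -1.41 below.

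In complex I, 9 of 44 genes rose and 2 fell. Beside this and the counts of the other complexes below, 13.4% of all genes tested rose and 13.1% fell, 26.5% in all. In either direction, complex I genes were thus called at about the share of all genes. All 8 that rose beside Ndufs8 were accessory subunits, of 29 tested. Ndufs8, which carries iron-sulfur clusters, was the only one of 7 core subunits called. None of the 8 assembly factors was called, with 1 of them at an unadjusted p under 0.05. The assembly factors stood at only 15.3 to 97.6 CPM over all kept cells, below the median of 239.6 CPM, where a change is harder to call. Ndufab1, the mitochondrial acyl carrier protein and an accessory subunit, stood at 275, 260, 251 and 236 CPM in the stem gate of Helios-deficient mice 1 and 2 and wild-type mice 1 and 2, and at 376, 330, 286 and 287 CPM in the CD48-high CD150-low gate. All 4 mice were higher and the gates did not overlap (log2 fold change 0.35, SE 0.065, edgeR adjusted p = 1.1e-05). The call ended in the depth subset (0.08, edgeR adjusted p = 0.768) and the low-cycle subset (0.25, edgeR adjusted p = 0.198). Ndufs6, a zinc-binding accessory subunit, rose by 0.31 and Ndufb8, a membrane-arm subunit, by 0.30 on the log2 scale. Ndufb2, whose promoter is shown above with its ERR word, rose by 0.25, from 190 ± 12.3 to 218 ± 8.55 CPM (edgeR adjusted p = 0.0077). The 2 that fell were Ndufv3, an accessory subunit beside the NADH-binding site, and Ndufa13, also known as GRIM-19. Ndufv3 stood at 209, 197, 171 and 198 CPM in the stem gate and 163, 157, 152 and 145 CPM in the CD48-high CD150-low gate, lower in 4 of 4 mice (log2 fold change -0.28, SE 0.074, edgeR adjusted p = 0.0021). Ndufa13, the complex I gene with the most UMIs, fell by 0.21 on the log2 scale, and without wild-type mouse 1 its edgeR adjusted p was 0.136. Its values were 378, 353, 411 and 362 CPM against 316, 305, 317 and 329 CPM.

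In complex II, the iron-sulfur subunit Sdhb and the membrane anchor Sdhd rose, while the flavoprotein Sdha and the anchor Sdhc had log2 fold changes of -0.01 and 0.03 and were not called. Sdhb stood at 218, 183, 147 and 182 CPM in the stem gate and 255, 248, 213 and 228 CPM in the CD48-high CD150-low gate. It was higher in 4 of 4 mice, although the 2 gates overlapped (log2 fold change 0.43, SE 0.078, edgeR adjusted p = 8.2e-06). The call ended in the depth subset (0.22, edgeR adjusted p = 0.301) and the low-cycle subset (0.26, edgeR adjusted p = 0.246). The stretch of its promoter shown above holds the ETS word close to the start. Sdhd rose by 0.36, from 143 ± 9.85 to 178 ± 8.67 CPM.

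In complex III, 4 of 8 genes rose and none fell: Uqcrfs1, Uqcrq, Uqcrc1 and Uqcr10. Uqcrfs1, the Rieske iron-sulfur protein that passes electrons toward cytochrome c, stood at 208, 184, 187 and 193 CPM in the stem gate and 247, 237, 251 and 235 CPM in the CD48-high CD150-low gate. The gates did not overlap (log2 fold change 0.38, SE 0.074, edgeR adjusted p = 2.5e-05). Uqcrq, a small membrane subunit of the complex, stood at 257, 256, 251 and 200 CPM and then 354, 295, 264 and 274 CPM (log2 fold change 0.32, edgeR adjusted p = 0.0003), and its log2 fold change was below 0 in the subsets of like depth and of low cycling described further on, at -0.15 and -0.06. Uqcrh, the hinge protein and the most abundant gene of the complex, stood at 755 ± 32.0 and 687 ± 65.8 CPM and was not called (log2 fold change -0.09, edgeR adjusted p = 0.141).

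Complex IV had the largest changes in both directions, with 9 of 15 tested genes higher and 2 lower. The 9 include Cox6a2, whose call is no support. Ndufa4 stood at 674, 682, 664 and 738 CPM in the stem gate and at 1274, 1318, 1327 and 1332 CPM in the CD48-high CD150-low gate. It was higher in every mouse, with a spread between mice that was small beside the difference (log2 fold change 0.97, SE 0.044, edgeR adjusted p = 5.0e-33). Cox5a, a subunit on the matrix side of the enzyme, stood at 421, 403, 380 and 376 CPM in the stem gate and 656, 586, 536 and 541 CPM in the CD48-high CD150-low gate (log2 fold change 0.59, SE 0.057, edgeR adjusted p = 1.4e-14). Every mouse was higher and the gates did not overlap. By contrast Cox4i1, another abundant matrix-facing subunit, stood at 953, 1011, 1011 and 924 CPM against 985, 979, 979 and 940 CPM, overlapping (log2 fold change 0.03, edgeR adjusted p = 0.655). Cox6c, Cox7a2, Cox7b, Cox5b, Cox6b1 and Cox8a also rose, by 0.13 to 0.29 on the log2 scale. Cox6b1, whose promoter is shown above, went from 510 ± 12.4 to 549 ± 30.01 CPM (log2 fold change 0.15, edgeR adjusted p = 0.032). Cox7a2l, a relative of Cox7a2 that joins complexes III and IV into supercomplexes, fell by 0.19 while Cox7a2 rose by 0.24. Its values were 653, 716, 705 and 705 CPM in the stem gate and 495, 608, 639 and 630 CPM in the CD48-high CD150-low gate. All 4 mice were lower and the gates did not overlap. The testis isoform Cox6b2 was not called (71.1 ± 19.4 and 78.0 ± 5.41 CPM), and Cox7a1, the muscle form of subunit 7a, had 52 UMIs in all kept cells.

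In complex V, 9 of 16 genes rose and none fell. They included the F1 subunits Atp5b (beta, catalytic) and Atp5c1 (gamma, the rotor shaft), 2 of 5 F1 genes, and 7 of 10 genes of the peripheral stalk and membrane part. Atp5b stood at 850, 830, 796 and 831 CPM in the stem gate and 991, 977, 944 and 963 CPM in the CD48-high CD150-low gate (log2 fold change 0.27, SE 0.043, edgeR adjusted p = 3.2e-07). Its partner in the F1 ring, Atp5a1, was at a log2 fold change of 0.06 and was not called. Atp5o, the stalk subunit OSCP, rose by 0.34, from 288 ± 10.9 to 355 ± 24.2 CPM. Atp5f1, stalk subunit b, stood at 506, 485, 470 and 452 CPM and then 594, 555, 560 and 562 CPM (log2 fold change 0.29, SE 0.054, edgeR adjusted p = 1.0e-05), without overlap. Its promoter, shown above, holds the YY1 word at its start. Atp5g1, Atp5g2 and Atp5g3 encode the same mature ring subunit c from different loci. Atp5g1 rose by 0.20 and Atp5g3 by 0.24, while Atp5g2, the most abundant of them at 702 ± 59.5 and 720 ± 33.8 CPM, was not called.

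**Figure D3:**
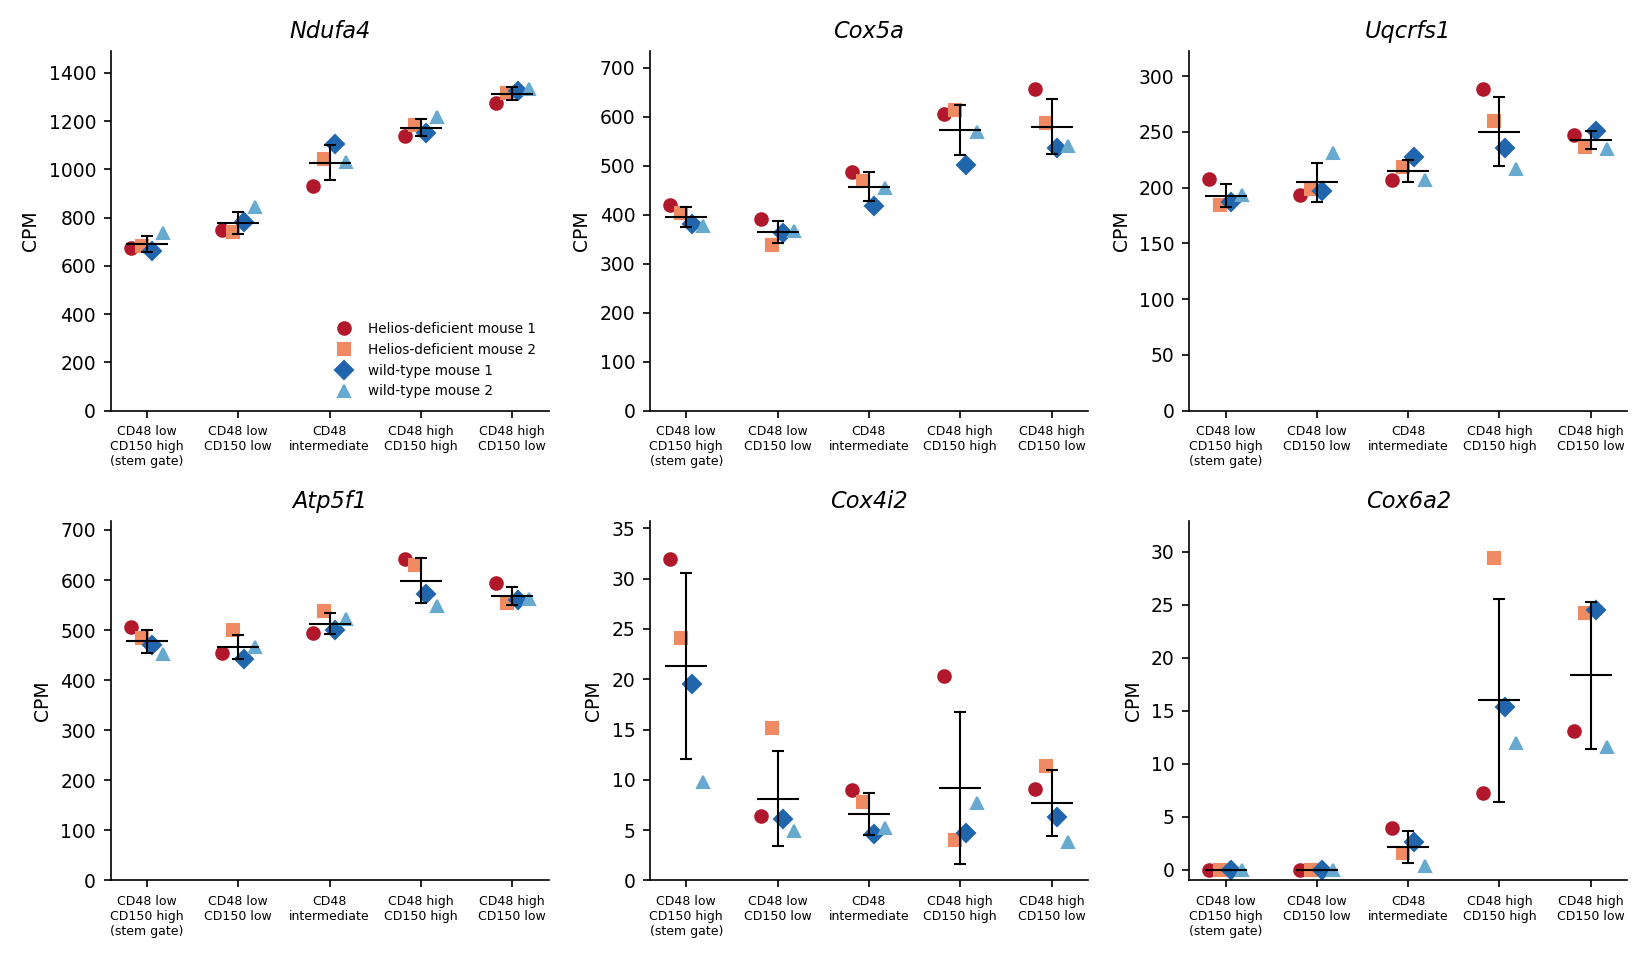
CPM of 6 of the nuclear genes (vertical axes, each from 0 and on its own scale, the Cox6a2 axis starting just below 0) in the 5 tag gates; each point is 1 mouse, and the bar gives mean and SD of 4 mice. Ndufa4 climbs from 689 CPM in the stem gate to 1313 CPM in the CD48-high CD150-low gate, Cox4i2 is highest in the stem gate, and Cox6a2 is at 0 in both CD48-low gates.

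The rise of Ndufa4 was graded. Over 10 equal bins of CD48 tag, its mean over the 4 mice went up at every step, from 675 ± 29.6 CPM in the lowest bin to 1383 ± 72.0 CPM in the highest. Single mice did not rise at every step: wild-type mouse 2 stood at 889 CPM in bin 2 and 830 CPM in bin 3. The bins were not matched for depth or cycling. Median UMIs per cell were 5766 to 6357 in the lowest bin and 13940 to 18060 in the highest, and the cell cycle share was also higher there. Over the same bins Cox5a went from 340 ± 40.2 to 622 ± 49.5 CPM, Atp5f1 from 459 ± 38.3 to 594 ± 22.6 CPM and Uqcrfs1 from 195 ± 21.0 to 257 ± 21.96 CPM, whereas Cox4i1 stood at 990 ± 41.7 and 1014 ± 41.6 CPM. In GRCm38.p6 these genes lie at chr6:11900372-11907450 (Ndufa4), chr9:57517328-57532427 (Cox5a), chr3:105942698-105959263 (Atp5f1, listed there as Atp5pb) and chr13:30540312-30545316 (Uqcrfs1). The promoter windows of Ndufa4, Cox5a and Uqcrfs1 held none of the 4 words. Of genes that rose and had a promoter entry, 16 of 30 (53.3%) held 1 of the words, and of the others 20 of 44 (45.5%).

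The isoforms of muscle and lung stood out among rare transcripts. Cox6a2 (chr7:128205435-128206366), known as the heart and skeletal muscle form of subunit 6a, was at 0 UMIs in all 4 mice of the stem gate and at 13.1, 24.2, 24.5 and 11.6 CPM in the CD48-high CD150-low gate. Against a floor of 3 counts over the whole stem gate, it was at least 19.2-fold higher. Cox6a2 passed the count minimum only through the gates where it was present, so its call among the 33 is given without a p-value and as no support. A UMI was found in 0 of 383 stem gate cells, which allows up to 0.783% of cells with a UMI at this depth and does not limit the share that express the gene. A UMI was also found in 0 of 787 CD48-low CD150-low cells, in 15 of 1150 CD48-intermediate, 32 of 415 CD48-high CD150-high and 68 of 735 CD48-high CD150-low cells. Thinned to 5000 UMIs per cell, the share was 0 of 318 in the stem gate and 44 of 724 (6.08%) in the CD48-high CD150-low gate; 65 and 11 shallower cells were left out. The limit covers counting error only. The 279 UMIs came from 115 cells of all 4 mice, and 86 of them from the 10 cells with the most. The common isoform Cox6a1 was not called, at 323 ± 23.5 and 345 ± 25.9 CPM.

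Cells with Cox6a2 carried lymphoid-priming transcripts. Within the CD48-high CD150-low gate, the 68 cells with a Cox6a2 UMI had 2142 CPM of Dntt, the terminal transferase of lymphoid progenitors, and the 667 others 267 CPM. Il7r, the interleukin 7 receptor, stood at 57.4 and 3.62 CPM, Flt3 at 324 and 141 CPM, and Satb1, a chromatin organiser, at 197 and 83.1 CPM. The 8 markers of multipotent and lymphoid-primed progenitors summed to 4164 and 1635 CPM, and the 6 myeloid-priming markers to 941 and 2025 CPM. The 6 mature B cell markers summed to 85.6 and 1990 CPM, of which Igkc gave 34.9 and 1943. Median UMIs per cell were 13080 with and 11450 without Cox6a2, and the share of the 88 genes was 2.72% and 2.78%. These sums pool cells of 4 mice and were not tested.

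Cox4i2 (chr2:152753916-152765039), the subunit 4 isoform known from lung and from oxygen sensing, had the opposite pattern. It stood at 31.9, 24.1, 19.6 and 9.82 CPM in the stem gate and 9.13, 11.4, 6.29 and 3.86 CPM in the CD48-high CD150-low gate. Each mouse was lower, but the gates overlapped through wild-type mouse 2 (log2 fold change -1.41, SE 0.28, edgeR adjusted p = 4.8e-05). The drop was already present in CD48-low CD150-low cells, at 8.14 ± 4.70 CPM. A UMI was found in 51 of 383 stem gate cells (13.3%), 39 of 787 CD48-low CD150-low cells (4.96%) and 54 of 735 CD48-high CD150-low cells (7.35%). Thinned to 5000 UMIs, the shares were 8.49%, 3.83% and 3.04%, and the edgeR adjusted p for the stem gate contrast was 0.051. Free RNA in droplets gives UMIs in cells that do not express a gene; no cell type known to lack Cox4i2 was set aside, and the lowest share was 4.70% in CD48-intermediate cells, at a median of 7628 UMIs per cell.

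Sequencing depth and cell cycle moved with CD48. Median UMIs per cell were 6989 in the stem gate and 11720 in the CD48-high CD150-low gate, and S and G2/M phase genes took 0.356% ± 0.032 and 0.669% ± 0.077 of UMIs. Across the 3470 cells, which share 1 run, the share of the 88 genes had a Spearman rho of 0.565 with UMIs per cell, 0.551 with the cell cycle share and 0.301 with CD48, given as descriptions. Within cells of 6000 to 10000 UMIs, 5 of 85 tested genes, Cox6a2 among them, rose and 2 fell, against 6.26% and 5.75% of all genes. The median log2 fold change was 0.011. Within cells at or below the median cell cycle share, 7 of 85, again with Cox6a2, rose and 4 fell, against 6.21% and 6.04%. The median was 0.02. The shares called among the nuclear genes in these subsets were close to those of all genes, 12.0% and 12.2% in either direction.

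Particular genes kept their call in both subsets: Ndufa4, Cox5a, Atp5f1 and Uqcrfs1. Cox6a2 was also called in both, which is no support, since it passed the count minimum only through the gates where it was present. In the depth window, Ndufa4 was higher by 0.72 on the log2 scale (edgeR adjusted p = 1.5e-19), Uqcrfs1 by 0.40, Atp5f1 by 0.33 and Cox5a by 0.33. In cells low in cycle genes, Ndufa4 was higher by 0.76, Atp5f1 by 0.49, Cox5a by 0.45 and Uqcrfs1 by 0.39, and the core subunit Ndufs8 (0.42) and Atp5b (0.30) were also called. Cox6a2 was at least 7.82-fold and 8.40-fold higher in the 2 subsets. Ndufc1, a small complex I accessory subunit, and Ndufs7, a core subunit beside the quinone site, fell in both, Ndufc1 by 0.57 and 0.50 and Ndufs7 by 0.37 and 0.33. Over all cells both had been uncalled, at -0.02 and -0.12. Cox4i2 fell under the count minimum in both subsets, where its pooled level was 19.0 and 6.23 CPM in the depth window and 20.7 and 3.60 CPM in cells low in cycle genes. Some directions turned in the depth window, where Cox7a2l stood at 0.04, Atp5g3 at -0.03, Atp5g1 at -0.05 and Cox8a at -0.03, and in cells low in cycle genes Atp5g1 stood at -0.11 and Cox8a at -0.02, none of them called. Uqcrfs1 lost its call when cells were thinned to 5000 UMIs (log2 fold change 0.26, edgeR adjusted p = 0.063). No fit limited depth and cycling together. Among cells low in cycle genes, CD48-high cells still had medians of 7860, 7788, 6894 and 6909 UMIs in the 4 mice. CD48-low cells there had 6045, 6304, 5650 and 5611.

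**Figure D4:**
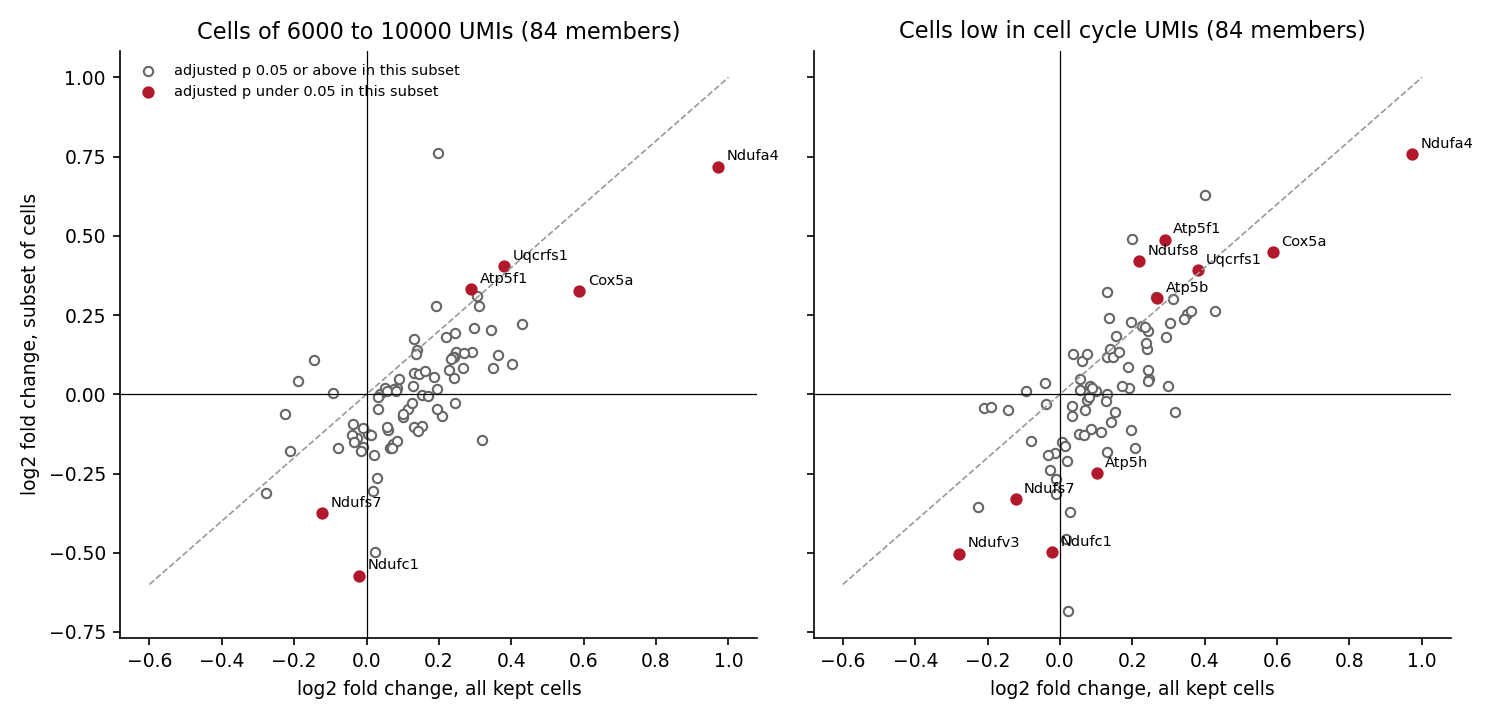
Log2 fold change of the CD48-high CD150-low gate over the stem gate in all kept cells (horizontal axis) against the same within cells of 6000 to 10000 UMIs (left) and within cells at or below the median cell cycle share (right), for 84 of 85 genes tested there, without Cox6a2; the dashed line marks equality. Most points lie below the line near 0, while Ndufa4, Cox5a, Atp5f1 and Uqcrfs1 keep a called rise in both panels.

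Other cell types in the gates were read from their markers. The 12 stem cell markers summed to 2151 to 2659 CPM in the stem gate and 932 to 1194 CPM in the CD48-high CD150-low gate. The 6 myeloid-priming markers summed to 399 to 577 and 1387 to 3214 CPM, and the 8 lymphoid-priming markers to 257 to 360 and 1411 to 2003 CPM. The 6 mature B cell markers stood at 71.1, 3650, 2889 and 74.95 CPM in the CD48-high CD150-low gate against at most 88.7 CPM in the stem gate, nearly all of it Igkc, while Ms4a1 had 3 UMIs in all kept cells. The 6 megakaryocyte markers summed to 627 to 1240 CPM in the stem gate and 114 to 177 CPM in the CD48-high CD150-low gate, and the 5 T and NK cell markers to 61.9 to 90.0 and 315 to 414 CPM, mostly Nkg7. Fits without cells carrying mature markers are given above, where the shorter filter did not count Igkc or Nkg7. The part of the other cells in the changes above was not tested.

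The other 2 outer gates share the stem gate values as their reference. In CD48-low CD150-low cells, 1 of 87 genes rose and 6 fell, against 2.74% and 3.22% of all genes (5.96% in all), with a median log2 fold change of -0.07. Ndufa4 was the gene that rose (0.16, from 689 ± 33.2 to 778 ± 47.0 CPM), and the 6 that fell were Cox4i2, Ndufv3, Ndufc1 and the ring subunit genes Atp5g1, Atp5g2 and Atp5g3, the last 3 by 0.18, 0.17 and 0.29. The Ndufa4 call was lost when Helios-deficient mouse 2, wild-type mouse 1 or wild-type mouse 2 was left out. The number that fell was then 3, 2 and 9. In CD48-high CD150-high cells, 40 of 87 rose and 2 fell, against 11.1% and 9.87% of all genes (21.0% in all), with a median of 0.16. Ndufa4 rose by 0.82, Cox5a by 0.58 and Atp5o by 0.50, and Cox4i2 and Cox7a2l fell. With library totals in place of TMM scaling, 26 rose and 5 fell there, and without Helios-deficient mouse 2, 20 rose. In cells of 6000 to 10000 UMIs 6 of 85 rose, in cells low in cycle genes 9 and without cells carrying mature markers 8, against 4.63%, 4.81% and 3.91% of all genes. That marker filter removed 2153 of the 3470 kept cells. The mature B cell markers summed to 19770 CPM in this gate of wild-type mouse 1 and to at most 88.2 CPM in the other mice.

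Other genes that serve these complexes were read in the same contrast, between the stem gate and the CD48-high CD150-low gate, in which 13.4% of all genes rose and 13.1% fell. Of 12 tested subunits of mitochondrial DNA, mt-Nd2 rose by 0.18, mt-Cytb fell by 0.14 and mt-Co1 fell by 0.13. Of 37 assembly factors outside the Nduf set, none rose and 3 fell, among them Atpaf1, an F1 chaperone, and Sdhaf4. Of 20 electron carriers and their makers, 5 rose and 1 fell; Cycs, cytochrome c, rose by 0.82 from 218 ± 29.5 to 379 ± 58.2 CPM, Cyc1, the cytochrome c1 of complex III, rose by 0.23, and Coq8a, needed for ubiquinone synthesis, fell by 1.39. Of 17 genes of the citric acid cycle, 5 rose, with Idh2 at 0.51 and Mdh2 at 0.30, and of 77 mitochondrial ribosomal proteins 12 rose and 1 fell, the rises close to the share of all genes. Of 19 regulators, 6 rose and 1 fell. Pprc1, a PGC-1 relative, stood at 1.10, Myc at 0.68, Nrf1 at 0.57, Gabpb1 at 0.40, Ssbp1 at 0.38 and Yy1 at 0.34. Their values in the depth and low-cycle subsets are not given here. Whether these regulators act on the nuclear genes was not tested. Glycolysis was mixed, with 6 of 22 genes higher and 9 lower, Gapdh at 0.45 and Ldhb at -0.90. Of the cell cycle lists, 24 of 25 S phase and 21 of 25 G2/M genes rose.

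By genotype, 1 of the 88 genes was called, Cox4i2, while 81 had a small positive log2 fold change and 7 a negative one. Their share of UMIs per cell was 2.62% and 2.61% for the mice without Helios, against 2.51% and 2.54% for wild type, a difference of the group that was not tested. Over all kept cells, 1 of 88 genes was called higher and none lower by edgeR, against 0.362% higher and 0.431% lower (0.794% in all) of 11592 genes, and DESeq2 called none in either direction. Without Helios-deficient mouse 2, 9 were higher and 1 lower, against 2.7% and 2.06% of all genes, and without Helios-deficient mouse 1, 2 were higher, against 1.41%. These fits assume that the lone remaining mouse varies like the other genotype. The median log2 fold change was 0.09, against -0.0003 for all genes, and in cells of 6000 to 10000 UMIs it was 0.02. In 58 of 88 genes (65.9%, against 19.9% of all genes) both Helios-deficient mice lay above both wild-type mice, and in 4 (4.55%, against 21.3%) both lay below. An unadjusted p under 0.05 was reached by 21 of 88 (23.9%, against 10.4%). By complex the median ranged from 0.07 in complex V, where 16 of 16 were positive, to 0.11 in complexes II and IV.

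**Figure D5:**
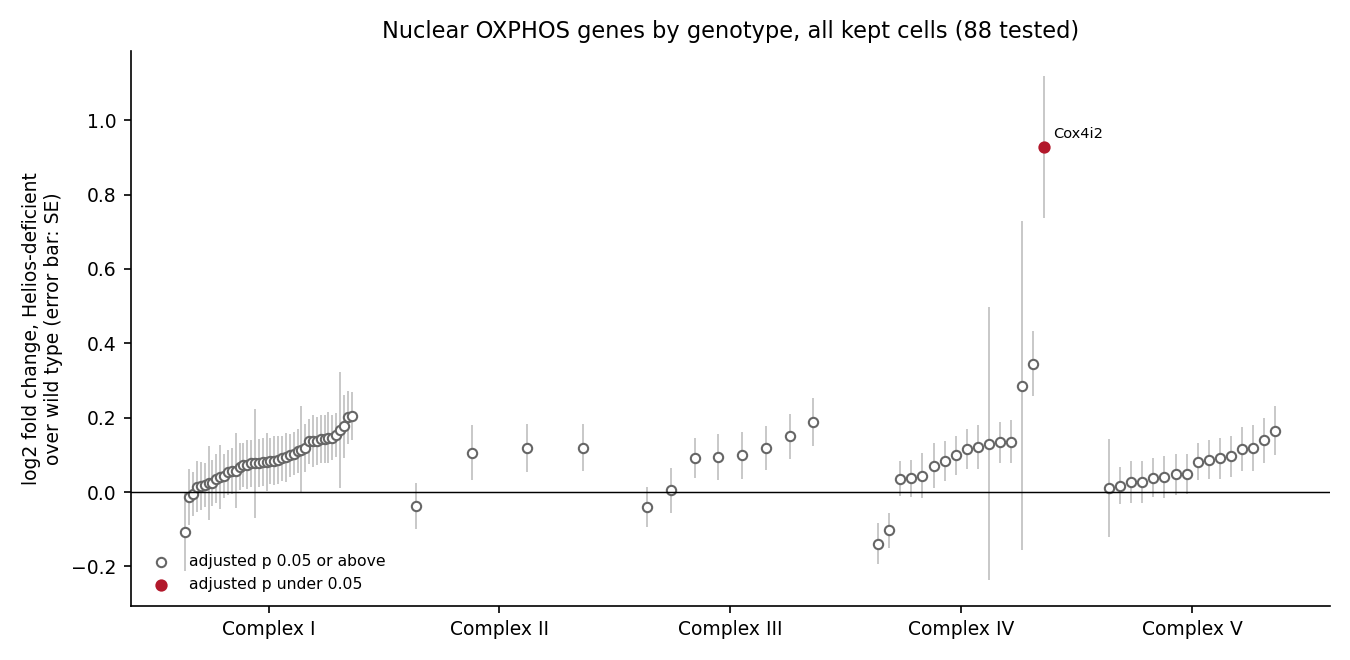
Log2 fold change of Helios-deficient over wild type (vertical axis, error bar SE) for the 88 nuclear genes over all kept cells, grouped by complex and ordered by size. Most points lie a little above 0, with a median of 0.09, and Cox4i2 at 0.93 is the only filled point, the only gene with an adjusted p under 0.05.

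The called gene was Cox4i2, with 12.2 and 11.3 CPM where Helios was missing against 6.69 and 5.50 CPM in wild type (log2 fold change 0.93, SE 0.19, edgeR adjusted p = 0.020). It rested on 70, 95, 69 and 46 UMIs, its edgeR adjusted p was 0.083 without wild-type mouse 2, and DESeq2 gave 0.503. The subunit 6b isoform known from testis, Cox6b2 (chr7:4751792-4753094), followed at 84.6 and 96.7 against 67.8 and 75.8 CPM (log2 fold change 0.34, edgeR adjusted p = 0.073). The accessory subunits Ndufab1 and Ndufb6 and the complex III subunit Uqcrq came next by p, at log2 fold changes of 0.20, 0.20 and 0.19 with edgeR adjusted p of 0.175, 0.276 and 0.241. Each of these had both Helios-deficient mice above both wild-type mice. Ndufa4 was among the 4 that ran the other way, at 992 and 1043 against 1078 and 1107 CPM (log2 fold change -0.10, edgeR adjusted p = 0.476), and so was Cox7a2l (-0.14, edgeR adjusted p = 0.376). Both values of the Helios-deficient mice were below those of the wild-type mice.

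Within gates, differences between the gates' medians were not tested. The median log2 fold change was 0.01 in the stem gate and -0.0005 in CD48-low CD150-low cells, and it was 0.10, 0.13 and 0.14 in the CD48-intermediate, CD48-high CD150-high and CD48-high CD150-low gates. One gene was called, Cox6b2 in CD48-intermediate cells (log2 fold change 0.60, edgeR adjusted p = 0.0021), where 0.804% of all genes were called. In the other gates 0 of 85 to 87 were called, against 0.109%, 0.190%, 0.457% and 0.155% of all genes in the order above, and DESeq2 called none in any gate. An unadjusted p under 0.05 was reached by 1 gene in the stem gate (1.16%, against 5.89% of all genes), 2 in CD48-low CD150-low cells (2.35%, against 5.43%), 14 in CD48-intermediate cells (16.3%, against 9.94%) and 21 in each CD48-high gate (24.1%, against 8.73% with high and 8.25% with low CD150). Without Helios-deficient mouse 2, 14 of 432 tests over the 5 gates were called (3.24%, against 1.55% of all genes), and without wild-type mouse 1 none (against 0.399%), with the same assumption on the lone mouse. A test of whether the stem-to-progenitor change differed between genotypes called 0 of 87 genes with edgeR and with DESeq2, against 0.0356% of all genes, and 3 of 87 had an unadjusted p under 0.05 with edgeR.

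Depth, cycling and gate makeup differed between genotypes too. The S and G2/M genes took a mean 0.485% and 0.504% of UMIs without Helios against 0.439% and 0.437% in wild type, and the G2/M list had a median log2 fold change of 0.26 with 0 of 25 genes called. Of the cells of each mouse, 27.47% and 29.85% were CD48 high in the Helios-deficient and 35.15% and 36.98% in the wild-type mice. With equal numbers of cells from each gate in every mouse, the median genotype difference of the nuclear genes was 0.10. In cells low in cycle genes it was 0.03. The mitochondrially encoded subunits had a median of 0.01 with none of 13 called, and none of the lists of assembly factors, carriers, citric acid cycle and mitochondrial ribosome had a called gene by genotype.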

How the data were processed

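The 3 deposited libraries (mRNA, antibody tags and hashtags) came from 1 droplet run, and the mouse, read from the authors' deposited hashtag calls, was the replicate; mice are not separate GEO samples. The authors deposited UMI counts per gene and cell, made with Cell Ranger on mm10 per the submitters' processing notes, which also name Seurat 3.0.0; the matrix header gives software version 3.0.2. The tag and hashtag tables are likewise deposited counts. Of 4108 barcodes, 3842 were assigned to 1 mouse, 231 were called doublets across mice and 35 negative, and the 3470 barcodes of the authors' kept list were analysed. No barcode occurred more than 1 time. Doublets within a mouse were not called.

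UMIs were summed per mouse, or per mouse and gate, over 5729987 to 10317599 UMIs per mouse. They were tested with edgeR 4.0.16 (TMM, filterByExpr, robust quasi-likelihood test) in R 4.3.3, with the mouse as a block between gates, adjusted by Benjamini-Hochberg over all genes; DESeq2 1.42.0 was an alternative. State contrasts paired gates of the same animal. With 2 mice per genotype, edgeR p-values weigh a difference against a spread between mice that is moderated across all genes. CPM was computed here from the summed cells. On simulated counts with the real means, the fit between gates (9378 genes) recovered 51 of 100 altered genes at a fold of 1.5 and 9 of 100 at 1.2. The genotype fit (11458 genes) recovered 79 and 6 of 100 at the same folds.

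The genes and lists were chosen with earlier results of these data known. Named genes were the 10 largest called rises and falls with 1 direction in 4 mice, the most abundant and lowest-p gene of each complex, isoform families, the 5 lowest p by genotype and, per other list, the 2 lowest p; other names, the shown promoters and the isoform cell comparison were chosen after values were seen. Motif words were written by hand and searched in RefSeq promoters of GRCm38.p6, the build of mm10; all 88 genes matched, 86 by symbol and 2 by synonym.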

Additional observations from a re-analysis of the deposited data

Results flagged for a closer look

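Values of named genes were compared among the 4 mice of each gate, in 84 groups, and 5 groups held a mouse far from the other three by Dixon's criterion, which chance meets in about 1 of 20 groups. In the stem gate, wild-type mouse 2 had 200 CPM of Uqcrq, with the others at 251, 256 and 257 CPM. The same mouse had 790 CPM of Atp5g2 there, with the others at 664, 670 and 684 CPM. In the CD48-high CD150-low gate, Helios-deficient mouse 1 had 589 CPM of Uqcrh, with the others at 712, 720 and 728 CPM, and 383 CPM of Cox6a1, with the others at 327, 332 and 336 CPM. In that gate wild-type mouse 2 had 940 CPM of Cox4i1, with the others at 979, 979 and 985 CPM.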

How the results depend on the processing

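The count of genes higher in the CD48-high CD150-low gate than in the stem gate (33) was 7 in cells low in cycle genes, 6 without cells carrying mature cell markers, 13 after thinning to equal depth, 5 in cells of 6000 to 10000 UMIs and 21 to 33 with 1 mouse left out; the 4 lower were 0 without cells carrying mature markers and 2 in the depth window. The mature marker filter removed 2153 of 3470 cells, and a filter without Igkc, Cd79b and Nkg7, added after seeing the data as was the depth window, removed 130 and left 26 higher. The median of 0.13 was 0.02 in cells low in cycle genes and 0.0107 in the depth window. Without the mouse as a replicate block, 24 were higher.

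For CD48-low CD150-low cells the 1 higher became 0 with DESeq2, without the replicate block, with outer tag quartiles, with centred log ratio gates, without mature marker cells and after thinning, and 0 to 1 with a mouse left out. The 6 lower became 2 without the replicate block, 10 with tag thresholds set within each mouse, 1 in the depth window, 2 to 9 with a mouse left out, and 0 with outer quartiles, centred log ratios, low cycling, without mature marker cells and after thinning. For CD48-high CD150-high cells the 40 higher became 26 with library totals, 8 with centred log ratios, 9 in low cycling, 8 without mature marker cells, 18 after thinning, 6 in the depth window and 20 to 35 with a mouse left out. The 2 lower became 5 with library totals and 1 with centred log ratios, low cycling, no mature marker cells and the depth window.

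By genotype the 1 higher became 0 with DESeq2, without the robust option and in low cycling, 2 without a count filter and with the shorter marker filter, and 1 to 9 with a mouse left out; 1 was lower in the depth window, and 0 to 1 with a mouse left out. The median of 0.0865 was 0.1025 with equal gates, 0.03 in low cycling, 0.0659 without mature marker cells, 0.0197 in the depth window and 0.0669 to 0.1021 with a mouse left out. Within gates, 0 were called by DESeq2 and 0 to 14 with a mouse left out. No paired analysis was possible because mice of the 2 genotypes share no pairing in the labels.

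Fold changes of named genes between the stem and CD48-high CD150-low gates that changed sign were Uqcrq at -0.057 in low cycling, -0.126 without mature marker cells and -0.146 in the depth window; Cox7a2l at 0.0774 without mature marker cells and 0.0419 in the depth window; Uqcrh at 0.0115, 0.0186 and 0.0055 in low cycling, without mature marker cells and in the depth window; Atp5g3 at -0.0277 in the depth window; Cox6b1 at -0.0425 without mature marker cells; Cox4i1 at -0.0094 with library totals, -0.0384 in low cycling, -0.0063 after thinning and -0.009 in the depth window; Atp5g1 at -0.1112 in low cycling and -0.0474 in the depth window; Atp5g2 at -0.0082 in low cycling; and Cox8a at -0.0208 in low cycling and -0.0263 in the depth window. The subsets hold fewer cells, and the cause of these changes was not tested.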
